A study of Mus musculus with 72 samples.

Results

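The genes described here encode subunits of the ionotropic glutamate receptors of the AMPA and NMDA classes in Pet1 neurons of the mouse dorsal raphe (DR). They were chosen by name: Gria1, Gria2, Gria3 and Gria4 for AMPA receptors, and Grin1, Grin2a, Grin2b and Grin3a for NMDA receptors. All 8 were present among the 17231 genes of the filtered 10X table and among the 24256 genes of the table of manually sorted cells. The 10X table held 2350 neurons isolated with an On-Chip Sorter from the full DR of mice carrying either Pet1::Flpe with hM3Dq (mean age P65.5) or En1::cre, Pet1::Flpe and RC::FrePe (mean age P59). No label ties the 2 barcode endings of that table to these genotypes, so its cells were treated as 1 sample. En1::cre limits the label to neurons whose progenitors in the isthmus and the neighbouring rhombomere expressed En1, while the hM3Dq mice carried no Cre, so that their Pet1 neurons made EGFP and not the hM3Dq receptor. All 70 manually sorted neurons came from animals with a Cre driver, Pet1::Flpe and RC::FrePe, an intersectional reporter that marks cells with a history of both recombinases.

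The sorted cells formed 8 groups by Cre driver and DR subdomain. Sert::cre, driven by the serotonin transporter gene, gave 10 dorsolateral cells (Sert_dlDR), 9 dorsomedial cells (Sert_dmDR) and 8 ventromedial cells (Sert_vmDR) at P63 or P90, and 6 caudal cells (Sert_cDR) at P63. P2ry1::cre gave 10 caudal cells at P62 to P74 (P2ry1_cDR). Npy2r::cre gave 10 caudal cells (Npy2r_cDR) and 9 rostral cells (Npy2r_rDR) at P77 or P87. Crh::cre gave 8 rostral cells (Crh_rDR), of which 2 were from P83 and 6 from P119. The labels do not name the animal of a cell. Each group of cells therefore counted as 1 sample, no test between groups was made, and all ranges and intervals below describe cells or counting error only.

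AMPA receptors are tetramers that carry most of the fast excitatory current at glutamatergic synapses. GluA2, the product of Gria2, makes the channel nearly impermeable to calcium once its messenger RNA has been edited at the Q/R site in the pore loop, while GluA1 (Gria1) is known for activity-dependent delivery to synapses and GluA4 (Gria4) for fast gating. NMDA receptors need GluN1 (Grin1), which binds glycine, together with other subunits. GluN2A (Grin2a) and GluN2B (Grin2b) bind glutamate, and receptors with GluN2A deactivate faster. GluN3A (Grin3a) lowers calcium permeability and magnesium block. Glutamatergic afferents from cortex, habenula and hypothalamus reach DR serotonin neurons through such receptors.

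The sequence around the Q/R site is shown for each AMPA gene because the role of Gria2 in the balance described below rests on this codon. Each line gives 30 coding bases of the reference genome, 5′ to 3′ on the strand of the gene (GRCm38/mm10, GENCODE M21), with the Q/R codon in capitals.
Gria1: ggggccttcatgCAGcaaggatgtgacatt
Gria2: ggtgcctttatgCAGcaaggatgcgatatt
Gria3: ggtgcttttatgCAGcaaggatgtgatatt
Gria4: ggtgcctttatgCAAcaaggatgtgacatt

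The Gria1 stretch lies in exon 11 at chr11:57243082-57243111 on the plus strand, and the Gria2 stretch in exon 11 at chr3:80706896-80706925 on the minus strand. That of Gria3 lies in exon 11 at chrX:41610253-41610282 on the plus strand, and that of Gria4 in exon 12 at chr9:4464122-4464151 on the minus strand. All are in the protein-coding part of the longest coding transcript. Both codons, CAG and CAA, encode glutamine, and editing by adenosine deaminases turns the Gria2 codon into one read as arginine. The deposited counts hold no base calls, so editing was not measured here. The genes themselves lie at chr11:57011387-57330244 (Gria1), chr3:80681450-80802835 (Gria2), chrX:41400854-41678601 (Gria3) and chr9:4417896-4796234 (Gria4). Those of the NMDA receptor lie at chr2:25291181-25319187 (Grin1), chr16:9567898-9995560 (Grin2a), chr6:135713233-136173511 (Grin2b) and chr4:49661611-49845744 (Grin3a).

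The 10X cells held a median of 59646 unique molecular identifiers (UMIs, each standing for a captured transcript molecule; 12320 to 134079), and the sorted cells a median of 4113037.5 counted reads (756872 to 7664103). Every 10X barcode occurred in a single set: 869 cells had the first ending (barcode set 1) and 1481 the second (set 2). Rebuilding the clusters with the settings stated for the study gave 14, numbered here by fixed marker genes. Serotonin neuron genes were present throughout, and Tph2, the rate-limiting enzyme of serotonin synthesis, was lowest at 644.2 CPM (UMIs of the gene per 1000000 UMIs) in cluster 13 and highest at 3759.4 CPM in cluster 11. Cluster 13 was also the shallowest, its median cell holding 28627.5 UMIs. The oligodendrocyte transcript Mbp was at 47.2 CPM in cluster 13 and at 15.8 to 28.0 CPM in the other clusters, and the microglial transcript C1qa was at 8.5 CPM in cluster 7 and at or under 0.221 CPM elsewhere. The part of such transcripts in the subunit levels was not tested. Among the sorted cells Tph2 had reads in all 70.

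Across all 10X cells Gria2 and Gria4 were the main AMPA subunit transcripts, and Grin1 and Grin2b the main NMDA subunit transcripts. Gria2 reached 321.6 CPM (exact 95% Poisson interval 318.6–324.6) and ranked 545th of 17231 genes by UMIs, and Gria4 reached 215.5 CPM and ranked 852nd. Grin1 was at 89.5 CPM and Grin2b at 89.4 CPM, so the pair did not differ beyond counting error. Grin2a was at 36.3 CPM and Gria1 at 35.7 CPM, again within counting error of each other. Grin3a followed at 17.3 CPM, and Gria3 was the rarest at 4.00 CPM. UMIs were counted at the 3′ end, and how well an annotated end captures a gene's molecules differs between genes, so this order holds for counted molecules only.

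The order of the levels was nearly the same in both barcode sets, but several levels differed. Gria2 was at 286.6 CPM in set 1 and 340.7 CPM in set 2. Grin2b was at 73.0 and 98.3 CPM, and Grin3a at 12.3 and 20.1 CPM. Grin1 was the exception among the abundant subunits, with 92.4 CPM in set 1 and 88.0 CPM in set 2. Set 1 thus had Grin1 above Grin2b and set 2 had Grin2b above Grin1. The cells of both sets fell into every cluster in different proportions, and set and genotype cannot be told apart.

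Nearly every neuron carried Gria2, Gria4, Grin1 and Grin2b, whereas the other subunits were found in part of the cells. Gria2 had a UMI in 99.96% of cells and Gria4 in 99.4%. Grin1 was found in 97.7% and Grin2b in 96.4%. Gria1 was found in 70.3%, Grin2a in 64.6%, Grin3a in 40.1% and Gria3 in 12.8%. With each cell thinned to 20000 UMIs (53 cells fell short of that depth and were dropped), these last shares were 44.6%, 42.2%, 23.5% and 7.36%. No cell type that lacks these subunits was present in the table, so the share that free RNA alone would give was not measured.

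Counted as molecules, 55.8% of AMPA subunit UMIs came from Gria2 (exact 95% binomial interval 55.4–56.1%), 37.4% from Gria4, 6.19% from Gria1 and 0.693% from Gria3. Each cell held a median of 32 AMPA UMIs, and the median Gria2 share per cell was 56.6%, with an interdecile range of 38.5% to 73.0%. A single cell lacked a Gria2 UMI. Gria4 exceeded Gria2 in 483 cells (20.6%), and Gria1 exceeded Gria2 in 11. Of the UMIs of Grin2a and Grin2b, Grin2a gave 28.9% (28.2–29.5%). Grin2a and Grin2b occurred together in 1487 cells, Grin2b alone in 779, Grin2a alone in 30 and neither in 54. Grin2a exceeded Grin2b in 283 cells. The cells held 2.48 AMPA subunit UMIs for each NMDA subunit UMI.

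The 8 subunits split into a stable and a variable set across the 14 clusters. Gria1, Gria3, Grin2a and Grin3a were past 2-fold between at least 1 cluster and all other cells, which is 4 of 8, against 31.1% of the 12901 genes with at least 100 UMIs. The same 4 had a highest cluster level over 4-fold their lowest, against 22.1% of those genes. Among the 6801 genes with at least as many UMIs as Grin3a, which leaves out Gria3, the share was 8.45%, beside 3 of 7 subunits. Gria1, Gria3, Gria4, Grin2a and Grin3a were among the 2000 variable genes that shaped the clusters, so these differences describe the clusters and were not tested. With all members and partner genes kept out of the clustering, the same 4 genes passed both thresholds.

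**Figure D1:**
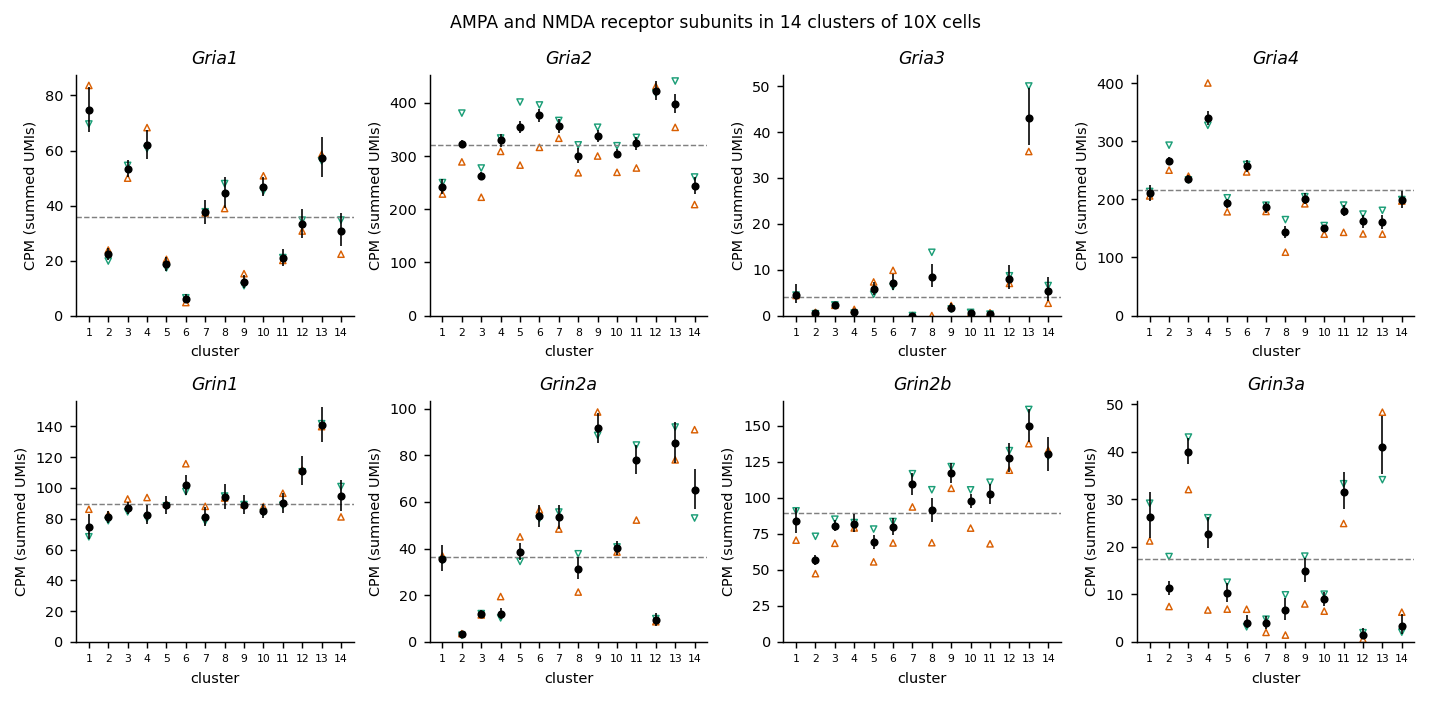
Level of each receptor subunit in CPM of summed UMIs (y axis) in the 14 clusters of 10X cells (x axis). Black points are all cells of a cluster with exact 95% Poisson intervals, orange triangles pointing up are barcode set 1, green triangles pointing down are barcode set 2, and the dashed line is the level over all cells. Gria2 lies between 242.4 and 423.2 CPM, while Gria3 stands out in cluster 13 at 43.1 CPM.

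Gria2 and Gria4 moved least among the AMPA subunits. Gria2 was highest in cluster 12, the Met and Zeb2 cluster, at 423.2 CPM (405.3–441.7), and lowest in cluster 1, led by Npas1 and Gabrq, at 242.4 CPM (228.3–257.2), a ratio of 1.75. Gria4 was highest in cluster 4 (Sox14, Vim, Prkcq) at 340.2 CPM and lowest in cluster 8 (Rorb, Nr2f2, Wnt4) at 143.5 CPM, a ratio of 2.37. Most neighbours in these orders overlapped in their intervals, in 11 of 13 neighbouring pairs for Gria2 and 10 of 13 for Gria4.

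The share of Gria2 among AMPA UMIs separated the clusters into a lower and a higher set. Cluster 4 had 45.0%, cluster 1 had 45.5% and cluster 3 (Kit, Hcrtr1, Phlda1) had 47.4%. In cluster 14 (Gpr101, Ecel1, Cxcl14) it was 51.0% and in cluster 2 (Crym, Trh) 52.7%. The other clusters lay at 58.2% or above, and cluster 12 was highest at 67.6% (65.9–69.2%). In cluster 4 Gria4 gave 46.4% (45.2–47.7%), and its interval overlapped that of Gria2 (43.8–46.2%). The order there depended on the barcode set, with Gria4 at 400.5 and Gria2 at 308.8 CPM in set 1 (27 cells), and 327.6 and 334.0 CPM in set 2 (118 cells). In set 1 Gria4 was also above Gria2 in cluster 3, at 240.1 and 222.5 CPM. At the level of cells, Gria4 exceeded Gria2 in 45.5% of cluster 4 and 1.83% of cluster 12, with 41.0% and 40.6% in clusters 14 and 3. When clusters were built without these genes, cluster 4 kept 62 cells, and its Gria2 share was 39.4%.

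Gria1 marked clusters at both ends of its range. It was highest in cluster 1 at 74.6 CPM (66.9–83.0), followed by cluster 4 (62.0 CPM), cluster 13, which is led by Nfib, Nppc and Bmp3 (57.4 CPM), and cluster 3 (53.3 CPM). It was lowest in cluster 6 (Pou3f2, Bcl11a, Gad1) at 6.03 CPM (4.58–7.80), with a UMI in 22.6% of cells against 89.0% in cluster 1. Clusters 9 and 5 were also low, at 12.2 and 18.6 CPM, and these 4 were the clusters past 2-fold. Of all genes, 1.81% were 2-fold higher in cluster 1, and 4.51%, 4.8% and 4.49% were 2-fold lower in clusters 6, 9 and 5. Both barcode sets gave the same extremes, with 83.7 and 69.6 CPM in cluster 1 and 4.72 and 6.45 CPM in cluster 6. In cluster 1 Gria1 made up 14.0% of AMPA UMIs. With clusters built without these genes, cluster 4 (62 cells, 84.8 CPM) was above cluster 1 (75.5 CPM), and cluster 6 was again lowest at 6.41 CPM.

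Gria3 was the most restricted subunit. Cells of cluster 13 held 43.1 CPM (37.2–49.7) and the remaining cells together 2.68 CPM, which differ by 4.00 on the log2 scale (3.74–4.26). That cluster held 6.13% of the cells and 35.1% of all Gria3 UMIs, and 54.2% of its cells had a UMI. Both barcode sets gave the difference, with 35.8 CPM in set 1 and 50.1 CPM in set 2. In cluster 13, 1075 of 12901 genes (8.33%) were at least 2-fold higher than in other cells. Clusters 12 and 8, at 8.05 and 8.45 CPM, were also past 2-fold, as were 3.82% and 2.08% of genes there. In cluster 8 the UMIs sat in 8 of 86 cells, all of barcode set 2, and the highest cells held 18 and 11 UMIs of 46. Without those 2 cells, 17 UMIs and 3.19 CPM remained, below the 3.81 CPM of the cells outside cluster 8, so the cluster was no longer past 2-fold and its direction turned. Gria3 was past 2-fold lower in 6 clusters, namely 2, 4, 7, 9, 10 and 11, where 5.45%, 6.19%, 5.61%, 4.8%, 4.29% and 6.04% of all genes were. Cluster 7 (Tmeff2, Adcy2, Nrp2) had no Gria3 UMI in its 122 cells, which allows, at a limit of 3 counts, a share of up to 2.46% of cells with a UMI and a level of up to 0.376 CPM (0.462 CPM by the exact Poisson interval). The limit is on detection, since a cell without a UMI may still hold a rare transcript.

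**Figure D2:**
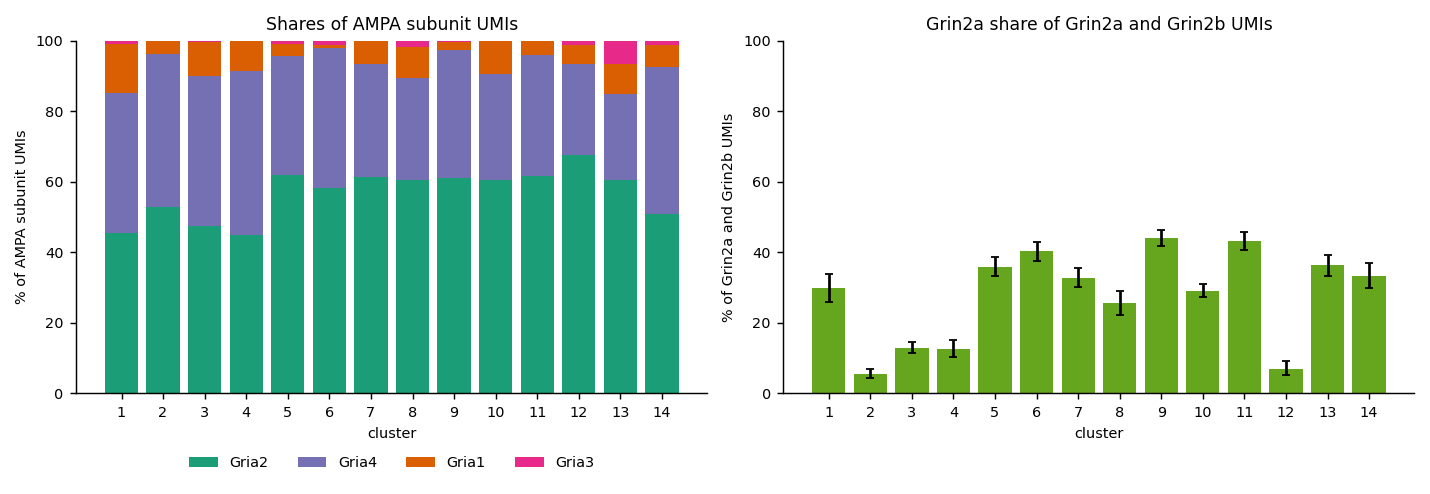
Subunit balance by cluster (x axis). The left bars stack the percentage of AMPA subunit UMIs from Gria2, Gria4, Gria1 and Gria3, and the right bars give the Grin2a percentage of Grin2a and Grin2b UMIs with exact 95% binomial intervals. Gria2 lies between 45.0% and 67.6%, and Grin2a between 5.44% and 43.9%.

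Grin1 and Grin2b were carried by all clusters, and neither was past 2-fold between a cluster and the other cells. Grin1, the obligatory subunit, was lowest in cluster 1 (74.6 CPM) and highest in cluster 13 (140.8 CPM), a ratio of 1.89. Grin2b was lowest in cluster 2 (56.8 CPM) and again highest in cluster 13 (149.6 CPM), a ratio of 2.64. Cluster 13 was the shallowest cluster, and without it the log2 span of Grin1 was 0.57 and that of Grin2b 1.20.

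Grin2a, in contrast, differed 28.1-fold between clusters. It was highest in cluster 9 (Maf, Nos1, Crh) at 91.6 CPM (85.5–98.1). Clusters 13 and 11, the latter led by Rspo3, Foxa1 and Adgrl2, followed at 85.3 and 78.0 CPM. Its lowest level was 3.26 CPM (2.53–4.14), in cluster 2, with 9.46, 11.8 and 12.0 CPM in clusters 12, 4 and 3. These 7 clusters were past 2-fold. Among all genes, 2-fold higher levels were found for 2.08%, 8.33% and 1.22% in clusters 9, 13 and 11, and 2-fold lower levels for 5.45%, 10.4%, 6.19% and 4.26% in clusters 2, 12, 4 and 3. A Grin2a UMI was found in 98.0% of cluster 9 cells and 14.4% of cluster 2 cells, and in 85.3% and 6.37% after thinning.

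The GluN2 balance was lowest in the same 4 clusters. Grin2a gave 5.44% (4.24–6.86%) of Grin2a and Grin2b UMIs in cluster 2 and 6.90% (5.11–9.07%) of those in cluster 12. It gave 12.6% and 12.9% in clusters 4 and 3. The other clusters lay between 25.6% and 43.9% (41.7–46.2%), the highest in cluster 9. No cell of cluster 12 had more Grin2a than Grin2b UMIs (0 of 109), against 31.8% of cluster 11 and 26.4% of cluster 9. Such cells were also rare in clusters 2, 3 and 4, at 2.17%, 1.92% and 3.45%. The difference between the extreme clusters, 38.5 percentage points, was 41.3 in barcode set 1 and 39.6 in set 2. In the clusters built without these genes, the shares of clusters 2, 12 and 9 were 4.98%, 6.90% and 43.9%, and cluster 3 gave 12.7%. Cluster 10, then 77 cells, was also low there at 15.4%, and cluster 4, then 62 cells, gave 21.8%, so the low set was not the same in both clusterings.

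Grin3a was high in 3 clusters and nearly missing from cluster 12. Cluster 13 held 41.0 CPM (35.3–47.5) and cluster 3 held 40.0 CPM (37.3–42.8), both past 2-fold as 8.33% and 1.16% of genes were, with cluster 11 next at 31.6 CPM. Cluster 3 alone held 35.6% of all Grin3a UMIs in 13.3% of the cells, with a UMI in 81.2% of them. In cluster 12 it was at 1.41 CPM (0.57–2.90), from 7 UMIs in 109 cells. Clusters 14, 7 and 6 followed at 3.36, 3.88 and 4.06 CPM, and clusters 8 and 10 were also past 2-fold lower, at 6.61 and 8.98 CPM. In cluster 12, 10.4% of genes were 2-fold lower, and in clusters 14, 7, 6, 8 and 10 the share was 5.38%, 5.61%, 4.51%, 5.08% and 4.29%. The barcode sets differed in cluster 4 (6.70 CPM in set 1, 26.1 in set 2) and, the other way, in cluster 13 (48.3 and 34.1).

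Combining both classes, the clusters differed in the whole set of subunits they carried. Cluster 2 had 4.01 AMPA UMIs for each NMDA UMI, with little Grin2a. Cluster 12 had the highest Gria2 level, little Grin2a and the least Grin3a. Cluster 13 carried every variable subunit at a high level and had 1.58 AMPA UMIs for each NMDA UMI. Cluster 6 was low in both Gria1 and Grin3a with Grin2a at 53.8 CPM. Over the 14 clusters, Pearson's r of log2(CPM + 1) was 0.58 between Grin2a and Grin2b and 0.08 between Grin2a and Grin3a. These points share libraries and depth, and clusters were partly built on these genes.

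By a fixed rule, the 3 genes with the most similar cluster pattern were listed for each variable subunit, among 9127 genes with at least 1000 UMIs. Grin2a was most like Epha5 (r = 0.94), an ephrin receptor, Dlc1 (0.92) and Pcdh15 (0.91), a protocadherin. Grin3a was most like Trim24 (0.86), Camta1 (0.81) and Hsd17b11 (0.81). Gria3 was most like Ep300 (0.89), a histone acetyltransferase, Whamm (0.88) and Adgrb3 (0.88). Gria1 was most like Tor1aip1 (0.81), BC003965 (0.80) and Tmem57 (0.79). Each r rests on 14 clusters.

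Genes for proteins that bind or cluster these receptors, or that belong to the editing enzyme family, are given by list. Each count is to be read against the same 22.1% of genes with a 4-fold span. Of 11 AMPA receptor auxiliary subunits with at least 100 UMIs, 6 had a 4-fold span. These were the transmembrane AMPA receptor regulatory proteins Cacng3, Cacng4 and Cacng5, together with Shisa6, Shisa9 and Gsg1l. Cnih2, a cornichon that slows AMPA receptor gating, was highest of the list at 179.4 CPM. Cacng3 peaked at 143.0 CPM in cluster 3 and was lowest, 13.3 CPM, in cluster 12. Cacng4 peaked in cluster 7 (65.4 CPM; lowest 10.5 in cluster 5). For Cacng5 the extremes were clusters 9 and 2, with 62.6 and 0.390 CPM. Shisa9 reached 89.9 CPM in cluster 5 (Pdyn, Ret, Col25a1) but 1.21 CPM in cluster 12. Gsg1l, in clusters 6 and 11, was at 21.2 and 0.844 CPM. Shisa6 was highest in cluster 9 at 8.53 CPM.

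Of the 3 NMDA receptor partners with enough UMIs, 2 had a 4-fold span. Both were lowest in cluster 12. Neto1 had 0.805 CPM there against 44.7 CPM in cluster 4, and the kinase subunit Camk2a 3.62 CPM there against 24.0 CPM in cluster 2. Camk2b was the highest of the list at 121.2 CPM. Of 13 scaffolds and trafficking proteins, only Grip1 passed, with its highest level, 49.9 CPM, in cluster 12 (lowest 6.67 in cluster 2), and Nsf was highest at 292.0 CPM. Of 3 neuronal pentraxins, which gather AMPA receptors at synapses, Nptx1 (78.4 CPM in cluster 6, 1.61 CPM in cluster 12) and Nptx2 (98.2 CPM in cluster 13) passed, and Nptxr was highest at 101.6 CPM. Of 3 genes listed by family with the editing enzymes, Adarb2 passed, with 28.9 CPM in cluster 14. That level is no measure of editing. Adarb1, the enzyme that edits the Q/R site and is named for that role although it did not pass, was present in every cluster, with 27.2 CPM (cluster 12) to 62.9 CPM (cluster 6), and Adar was highest at 114.4 CPM. Of the other NMDA subunits, Grin2d was at 0.575 CPM and Grin2c at 0.0885 CPM, both under 100 UMIs.

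**Figure D3:**
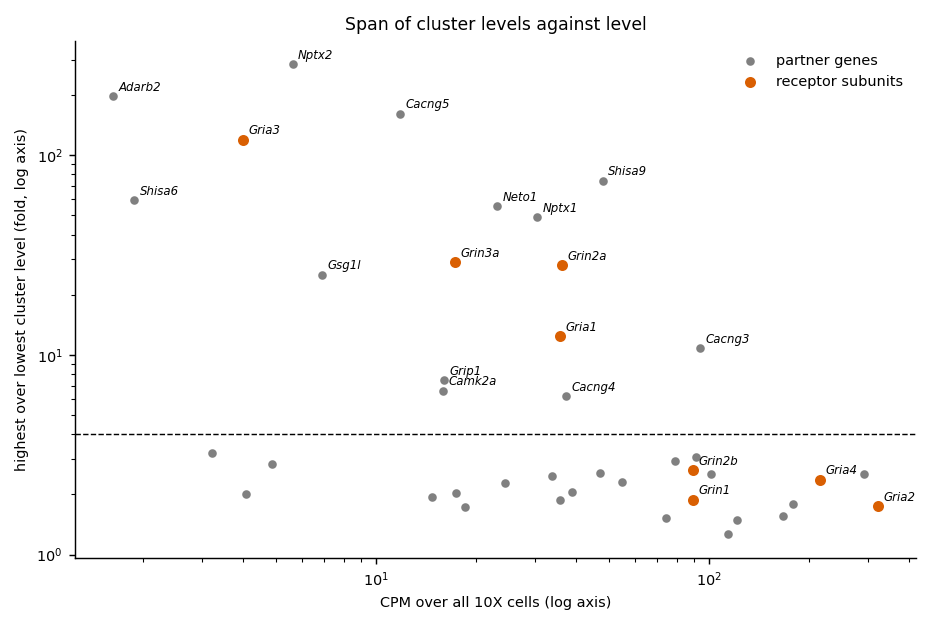
Highest over lowest cluster level (fold, log y axis) against the level over all 10X cells in CPM (log x axis) for the 8 receptor subunits (orange) and the partner genes with at least 100 UMIs (grey). Clusters under 3 UMIs were set to 3 counts, and the dashed line marks 4-fold. Gria2, Gria4, Grin1 and Grin2b lie below the line, and Gria1, Gria3, Grin2a and Grin3a above it.

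The 70 sorted cells, sequenced along the whole transcript to a greater depth per cell, showed the same 4 broadly present subunits. Gria2 had reads in all 70 cells, with a median of 332.0 CPM (136.9 to 833.2). Gria4 had a median of 302.2 CPM (17.4 to 798.1), also in all 70 cells. Grin1 was found in all 70 cells, with a median of 46.9 CPM (4.00 to 132.3), and Grin2b in 68, with a median of 38.0 CPM. Gria1 was found in 57 cells and Grin2a in 47, while Grin3a was found in 20 and Gria3 in 9. Both Grin2a and Grin2b had reads in 47 cells, Grin2b alone in 21 and neither in 2, and no cell had Grin2a alone. The libraries were not stranded. An antisense gene, Grin1os, overlaps Grin1 and is absent from this table, so its reads cannot be told apart from Grin1.

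Per kilobase of the longest coding transcript, Gria4 rather than Gria2 gave the larger share of AMPA reads in most sorted cells. The Gria2 share had a median of 33.0% (SD 13.3, n = 70; 9.54% to 84.8%) and the Gria4 share a median of 60.4%. Gria4 was over 50% in 55 of 70 cells. This order depended on the length used, because the annotated Gria2 transcript is 10371 bases long and that of Gria4 5441. With reads divided by the coding length, the medians were 49.0% for Gria2 and 46.2% for Gria4, and without any length they were 48.4% and 46.7%. By CPM alone, Gria4 exceeded Gria2 in 32 of 70 cells.

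By group and per kilobase of transcript, the Gria2 median was lowest in Crh_rDR at 23.8% and Sert_dlDR at 27.2%. It was highest in Npy2r_rDR at 44.1% and Sert_cDR at 43.2%. The cells of all groups overlapped. Gria4 gave a median of 70.8% in Sert_dlDR, 70.6% in Crh_rDR and 41.6% in Sert_cDR. Per kilobase of coding sequence the same groups were at the ends, with Gria2 medians of 37.8% in Crh_rDR, 42.1% in Sert_dlDR, 59.3% in Sert_cDR and 60.6% in Npy2r_rDR. On that scale the Gria2 median was above the Gria4 median in 5 of the 8 groups, all but Sert_dlDR, Sert_dmDR and Crh_rDR.

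**Figure D4:**
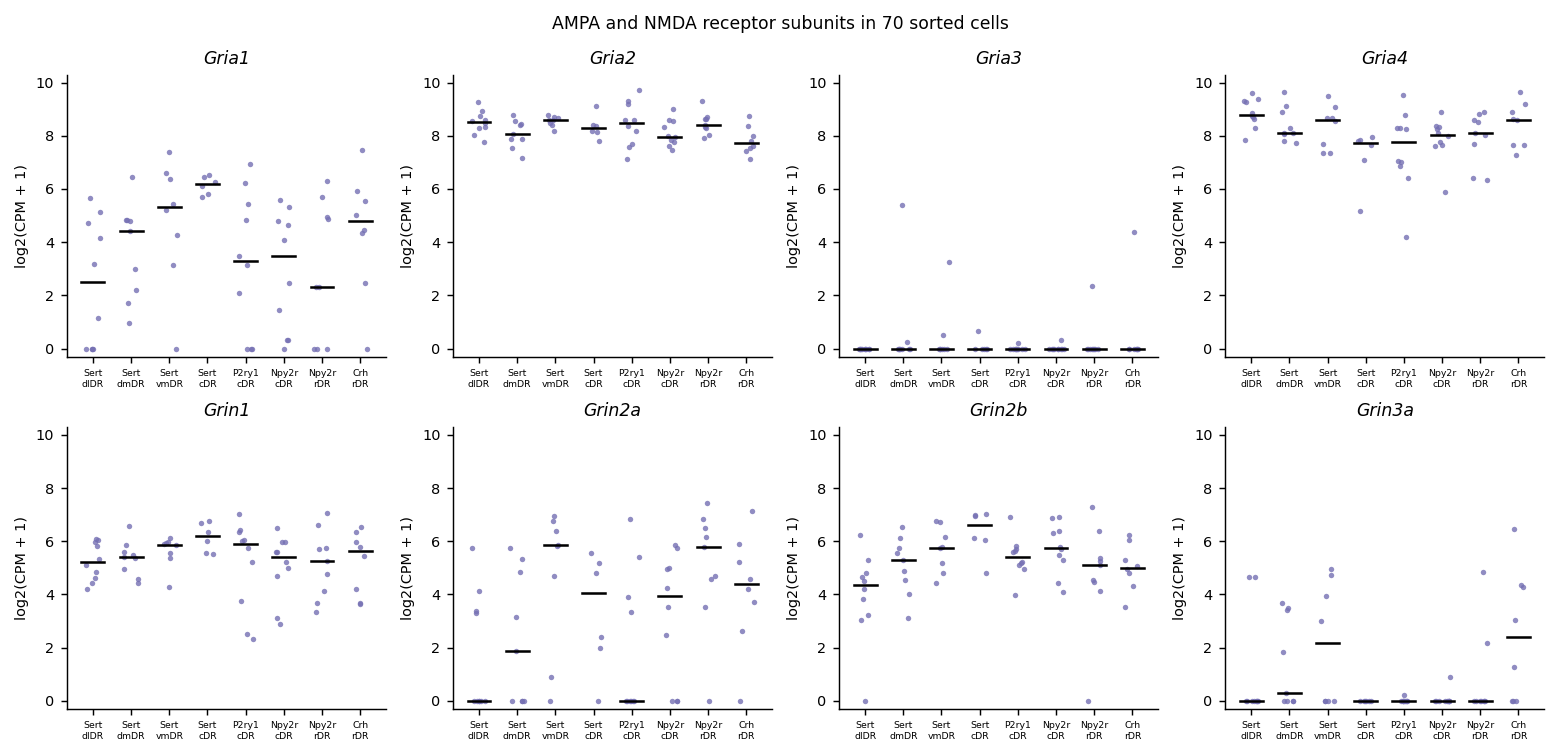
Level of each subunit in log2(CPM + 1) (y axis) in the 70 sorted cells, by group (x axis). Each point is a cell and each bar the median of its group. Gria2 and Gria4 have reads in every cell, while Gria3 has reads in 9 cells and Grin3a in 20.

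Gria1 was highest in the Sert_cDR cells and low in the cells of the dorsolateral DR. All 6 Sert_cDR cells had Gria1, at 50.9, 55.6, 67.6, 76.5, 85.9 and 92.1 CPM. In Sert_dlDR the range was 0 to 48.9 CPM with a median of 4.68 CPM. Npy2r_rDR had the lowest median, 3.96 CPM (0 to 78.1), and Sert_vmDR a median of 39.5 CPM (0 to 166.3). Of the groups compared with the mean of the other 7, Gria1 was past 2-fold higher in Sert_cDR (log2 1.30) and past 2-fold lower in Sert_dlDR (−1.47) and Npy2r_cDR (−1.21), where 21.1%, 15.9% and 13.1% of all genes were. In Npy2r_cDR the 6 cells from P87 had a mean of 9.54 CPM and the 4 from P77 one of 25.6 CPM, which is within 2-fold of the 36.9 CPM of the other groups.

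Gria4 and Gria2 differed less. Gria4 had its highest group median in Sert_dlDR, 442.4 CPM (227.7 to 772.4), and its lowest in Sert_cDR, 209.1 CPM (34.7 to 243.8). Gria2 had its highest in Sert_vmDR, 384.7 CPM (290.4 to 444.0), and its lowest in Crh_rDR, 208.2 CPM (136.9 to 431.1). Neither was past 2-fold in any group, although Gria4 in Sert_cDR, at a log2 ratio of −0.99, was just inside. Gria3 was at or under 8.62 CPM in all cells but 2, a Sert_dmDR cell at 40.7 CPM and a Crh_rDR cell at 19.9 CPM.

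Grin2a differed most between groups among the NMDA subunits with a mean of at least 5 CPM. The Grin2a median was 56.5 CPM in Sert_vmDR (0 to 122.3) and 53.9 CPM in Npy2r_rDR (0 to 173.3). It was 0 in Sert_dlDR (0 to 52.6, 4 of 10 cells with reads) and 0 in P2ry1_cDR (0 to 114.5, 4 of 10 cells). The Sert_dlDR cells with reads were 4 of the 5 from P63, with a median of 9.42 CPM over those 5, and none of the 5 from P90. Against the other groups Grin2a was past 2-fold higher in Npy2r_rDR (log2 1.32) and Sert_vmDR (1.14), and past 2-fold lower in Sert_dlDR (−1.89) and Sert_dmDR (−1.12). Of all genes, 14.0% and 12.8% were past 2-fold in the former pair of groups and 15.9% and 11.0% in the latter. Both lower calls rested on including the P90 cells. At P63 the Grin2a mean was 17.5 CPM in Sert_dlDR, within 2-fold of the 32.4 CPM of the other groups. In Sert_dmDR it was 20.0 CPM at P63, within 2-fold of the 31.6 CPM of the other groups. Grin2b was past 2-fold lower in Sert_dlDR (−1.24), with a median of 19.5 CPM (0 to 73.9). There the mean was 31.8 CPM at P63, within 2-fold of the 54.5 CPM of the other groups, and 14.2 CPM at P90. Grin2b had its highest median in Sert_cDR, 96.0 CPM (26.9 to 129.2), where its log2 ratio of 1.00 was just inside 2-fold. Over the subunits and groups that could be compared, 8 of 48 combinations were past 2-fold, against 15.4% of all gene and group combinations. Gria3 and Grin3a, under a mean of 5 CPM over all cells, were not among them, and the group means of Grin3a ranged from 0 in Sert_cDR to 16.6 CPM in Crh_rDR. No subunit was called in P2ry1_cDR or Crh_rDR, where 25.8% and 9.22% of genes were.

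The Grin2a share of Grin2a and Grin2b, per kilobase, had a median of 32.0% over the 68 cells with a share. In 21 of these cells it was 0, and in 27 it was over 50%. The share depends on the lengths used (14634 bases for Grin2a, 24060 for Grin2b). Per kilobase of coding sequence the median was 22.4%, and 19 cells were over 50%. Rostral and ventromedial groups had the high medians of the Grin2a share, 66.9% in Npy2r_rDR (lowest cell 32.0%), 63.6% in Sert_vmDR and 58.5% in Crh_rDR. Npy2r_rDR and Crh_rDR also held the shallowest libraries, from 756872 and 1102604 reads, against 2303574 or more in every other group. The lowest Npy2r_rDR cell, replicate 4, had 8 Grin2a and 28 Grin2b reads, and replicate 5 had no share. The medians were 26.3% in Sert_cDR, 16.4% in Npy2r_cDR and 8.63% in Sert_dmDR. They were 0 in P2ry1_cDR and in Sert_dlDR, where no P90 cell had Grin2a reads. By coding length the 3 high medians were 55.5%, 51.8% and 46.5%, and those of Sert_cDR, Npy2r_cDR and Sert_dmDR were 18.1%, 10.8% and 5.50%. Cells of all groups overlapped.

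**Figure D5:**
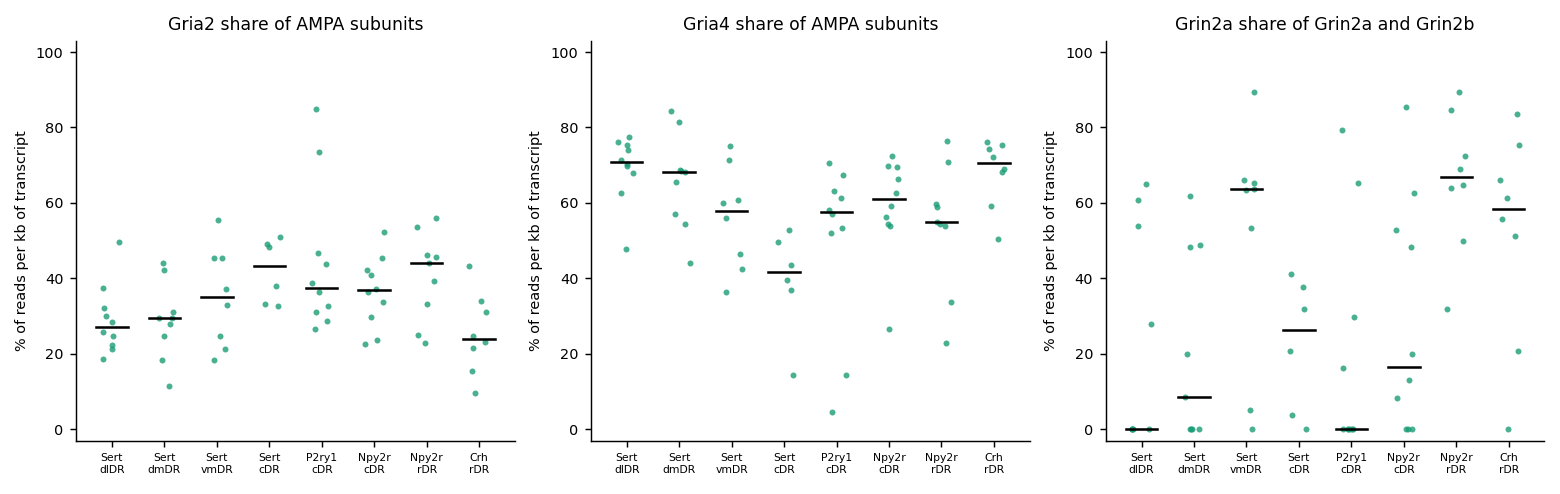
Shares per kilobase of transcript in each sorted cell (points) with group medians (bars), in percent (y axis), by group (x axis). The left panel gives the Gria2 share and the middle panel the Gria4 share of AMPA subunits, and the right panel the Grin2a share of Grin2a and Grin2b. The Grin2a median is 66.9% in Npy2r_rDR and 0 in Sert_dlDR and P2ry1_cDR.

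Pairs of groups that share a Cre driver or a subdomain were compared directly. Over 6 such pairs, 7 of 38 subunit and pair combinations were past 2-fold in mean CPM, against 22.7% of all gene and pair combinations, and none had cells that did not overlap, against 0.246%. With medians in place of means, 13 of 38 were past 2-fold, against 36.0%.

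The dorsomedial and ventromedial Sert cells were past 2-fold apart in the means of 3 subunits, in a pair where 19.1% of genes were past 2-fold and 0.0593% did not overlap. Grin2a alone stayed past 2-fold with any single cell left out, from −2.54 to −1.70. Grin2a had a mean of 14.5 CPM (SD 20.3, n = 9) in Sert_dmDR and 56.4 CPM (SD 46.1, n = 8) in Sert_vmDR, a log2 ratio of −1.96. The order was the same at both ages. At P63 the medians were 13.9 and 56.5 CPM. At P90 the Sert_dmDR cells were at 0, 2.64 and 7.87 CPM, and the 4 Sert_vmDR cells had a median of 54.0 CPM. Gria1 had means of 22.3 and 56.2 CPM (log2 −1.33), but the medians were 5.22 and 66.3 CPM at P63 and 27.2 and 30.5 CPM at P90. Without Sert_vmDR replicate 4, at 166.3 CPM, the Gria1 ratio was −0.86. Grin3a had means of 3.8 and 9.65 CPM (−1.34), with reads in 5 of 9 and 4 of 8 cells. Without Sert_vmDR replicate 6 the Grin3a ratio was −0.82, and without replicate 4 it was −0.96.

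The caudal and rostral Npy2r cells, where 20.7% of genes were past 2-fold and 0.00992% did not overlap, were compared in 6 subunits, since Gria3 and Grin3a were under 5 CPM. Of these, Grin2a was past 2-fold. It had a mean of 20.4 CPM (SD 21.6, n = 10; 0 to 57.4) in Npy2r_cDR and 61.8 CPM (SD 56.1, n = 9; 0 to 173.3) in Npy2r_rDR, a log2 ratio of −1.60. The median was lower in the caudal cells at P77, with 20.4 against 53.9 CPM, and at P87, with 11.3 against 47.2 CPM. The ratio stayed between −1.92 and −1.23 with any single cell left out.

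The rostral Crh cells against the rostral Npy2r cells (18.6% of genes past 2-fold, 0.00989% without overlap) differed by Gria1 and Grin3a. Gria1 had a mean of 44.9 CPM in Crh_rDR and 21.6 CPM in Npy2r_rDR (log2 1.05), and Grin3a 16.6 and 3.47 CPM (2.26). The highest cell for both was Crh_rDR replicate 6, at 176.8 CPM of Gria1 and 86.8 CPM of Grin3a. Without it the log2 ratios were 0.27 and 0.93, and without Npy2r_rDR replicate 1 they were 1.62 and 5.24. That cell was 1 of the 2 from P83, the other Crh cells were from P119, and no age was common to both groups. The Gria1 ratio was also under 2-fold without any of 6 other cells, from 0.88 to 0.98. Grin3a had reads in 5 of 8 Crh_rDR cells and 2 of 9 Npy2r_rDR cells.

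In the caudal DR the P2ry1 cells had less Gria1 than the Sert cells, with means of 28.5 CPM (SD 40.1, n = 10; 0 to 120.5) and 71.4 CPM (SD 16.4, n = 6), a log2 ratio of −1.33 in a pair where 33.9% of genes were past 2-fold and 1.11% did not overlap. With any single cell left out the ratio lay between −1.97, without P2ry1_cDR replicate 1, and −1.18. Of the 10 P2ry1_cDR cells, 8 were below every Sert_cDR cell. A single P2ry1_cDR cell shared the P63 age of the Sert_cDR cells, at 42.0 CPM. None of the 6 subunits compared (all but Gria3 and Grin3a) was past 2-fold between P2ry1_cDR and Npy2r_cDR (28.0% of genes past 2-fold, 0.29% without overlap) or between Sert_dlDR and Sert_dmDR (16.2% and 0.0%).

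The P2ry1_cDR cells offered a look at the cluster 12 pattern in other cells and another chemistry, since Met, the leading gene of cluster 12, had reads in 9 of the 10. Grin3a had reads in 1 of 10 P2ry1_cDR cells, at 0.156 CPM, and in 19 of the 60 other sorted cells. The other caudal groups were alike, with Grin3a reads in 0 of 6 Sert_cDR cells and 1 of 10 Npy2r_cDR cells. Grin2a had reads in 4 of 10 P2ry1_cDR cells and in 43 of the 60 others. Its means were close in the caudal groups, at 17.9 CPM in P2ry1_cDR, 19.3 CPM in Sert_cDR and 20.4 CPM in Npy2r_cDR. In the latter groups 5 of 6 and 7 of 10 cells had Grin2a reads. Shisa9 had reads in 0 of 10 and in 46 of 60, Neto1 in 0 of 10 and in 41 of 60, and Camk2a in 0 of 10 and in 38 of 60. Nptx1 had reads in 1 of 10 and in 35 of 60. Grip1, a scaffold that binds GluA2 and GluA3, had reads in all 10, with a median of 54.5 CPM against 2.93 CPM in the other 60 cells. Cacng3 had medians of 54.9 and 216.0 CPM. These 8 genes, chosen with their cluster 12 levels known, differed in mean in the same direction in cluster 12 against the other 10X cells. Of genes with at least 100 UMIs and a mean of at least 5 CPM in the sorted cells, 1022 were past 2-fold in cluster 12. Of these, 93.8% went in the same direction. Grin3a, at a mean of 4.64 CPM in the sorted cells, was not among them. Gria3 and Grin2b, given next, went the other way, so the 8 genes are no test of agreement. Gria3 was at 8.05 CPM in cluster 12 and 3.84 CPM in the other 10X cells, but had reads in 1 of 10 P2ry1_cDR cells and 8 of the 60 others, with means of 0.0156 and 1.25 CPM. Grin2b, at 127.6 and 87.9 CPM in the 10X cells, had means of 47.1 and 48.9 CPM in the sorted cells. Adarb1 had reads in 6 of 10 P2ry1_cDR cells and 58 of 60 other cells, with medians of 3.32 and 29.4 CPM. Gria2 had medians of 356.7 and 327.1 CPM there, and levels of 423.2 and 317.7 CPM in cluster 12 and the other 10X cells.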

How the data were processed

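The authors deposited a table of UMI counts for the filtered 10X cells and a table of read counts for the manually sorted cells, neither normalized. The 10X libraries (Chromium Single Cell 3′ v3) were counted with Cell Ranger 3.0.2, and the manual libraries (SMART-Seq v4) were aligned with STAR 2.5.4, both to mm10, per the submitters' processing notes and the study's methods. Before deposit the authors removed 10X cells with glial transcripts, little Fev or outlying totals. Manual libraries were sequenced single-end or paired-end, and which library had which was not used here. Counts were divided by each cell's or group's total and multiplied by 1000000 (CPM). The 10X cells were clustered in Seurat 5.3.0 (R 4.3.3) on 2000 variable genes at resolution 0.9, without components 6 and 7 of 50. Other steps used Python 3.11.15, scipy 1.17.1, pandas 2.3.3 and scanpy 1.11.5, whose Scrublet marked 14 likely doublets that were kept. The calculation of fold calls was checked on simulated counts, and thinning against its expected sums. Simulated 10X counts varied by counting error alone and simulated sorted cells by a fixed dispersion. These checks therefore do not cover the spread of real cells.

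The labels name no animals, and the 10X table does not assign barcodes to its 2 runs. Each group was therefore 1 sample with no test. CPM intervals are exact 95% Poisson intervals and shares carry exact (Clopper-Pearson) 95% binomial intervals, which cover counting error only. A level past 2-fold, or a 4-fold span over clusters, was counted beside the same count over all genes with at least 100 UMIs (10X) or a mean of 5 CPM (sorted cells), with clusters under 3 UMIs set to 3. Levels between genes in the sorted cells were compared per kilobase of the longest coding transcript in GENCODE M21.

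The members and lists were chosen with earlier results of these data known. All 8 members are named. Of the partner lists, genes are named with a 4-fold span or the highest level of their list, and for each member with a 4-fold span the 3 genes of highest correlation. Genes compared in P2ry1_cDR cells follow from those named in cluster 12. Alternatives included depth thinning, each barcode set alone, other cluster settings, edgeR 4.0.16 TMM library sizes, other lengths, 1 age per group and leaving out each cell.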

Additional observations from a re-analysis of the deposited data

Results flagged for a closer look

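In 15 of 62 combinations of a subunit and a sorted group with any reads, 1 cell stood apart from the rest of its group by Dixon's criterion, which chance meets in about 1 of 20 groups. Most were cells with reads for a subunit that was at 0 in nearly all others of the group, a setting in which the criterion is met by any single cell with reads.

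Gria3 was such a case in 7 groups. The highest cell was at 40.7 CPM in Sert_dmDR (replicate 2), 19.9 CPM in Crh_rDR (replicate 5), 8.62 CPM in Sert_vmDR (replicate 3) and 4.08 CPM in Npy2r_rDR (replicate 9). It was at 0.598 CPM in Sert_cDR (replicate 5), 0.243 CPM in Npy2r_cDR (replicate 8) and 0.156 CPM in P2ry1_cDR (replicate 5). The other cells of Sert_dmDR and Sert_vmDR reached 0.187 and 0.434 CPM, and those of the remaining 5 groups were at 0.

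Grin3a had 1 cell with reads in Npy2r_cDR (replicate 5, 0.839 CPM) and in P2ry1_cDR (replicate 5, 0.156 CPM). In Npy2r_rDR, replicate 1 was at 27.7 CPM and the other cells reached 3.52 CPM.

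The remaining cells were low for a subunit that the rest of their group carried. Gria4 was at 34.7 CPM in Sert_cDR replicate 6 (133.4 to 243.8 in the others) and at 57.6 CPM in Npy2r_cDR replicate 1 (193.0 to 469.8 in the others). Grin1 was at 18.2 CPM in Sert_vmDR replicate 5, where the others lay between 40.8 and 69.3 CPM. Grin2b was at 0 in Sert_dlDR replicate 6 (7.15 to 73.9 CPM in the others) and in Npy2r_rDR replicate 5 (16.7 to 154.4 CPM in the others).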

How the results depend on the processing

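The 4 subunits with a 4-fold span, Gria1, Gria3, Grin2a and Grin3a, were the same under every clustering and depth alternative run. The Gria2 share of AMPA UMIs was 53.9% in barcode set 1 and 56.7% in set 2. The Grin2a share of Grin2a and Grin2b was 30.5% and 28.2%, and 24.5% as a mean over cells. In the sorted cells the Gria2 share was 48.4% without scaling for length and 49.0% per kilobase of coding sequence. With single cells left out, the share per kilobase of transcript (33.0%) stayed between 32.8% and 33.2%, and the Grin2a share at 32.0%. The number of subunits past 2-fold was 3 to 4 both in matched pairs and between a group and the others. Medians in place of means raised the combinations of a subunit and a pair past 2-fold from 7 to 13, and those of all genes from 22.7% to 36.0%, and single cells left out gave 5 to 9. Gria3 in cluster 8 changed direction without its 2 highest cells (3.19 against 3.81 CPM), and these orders turned: Gria4 over Gria2 in sorted cells with the length used and, with the barcode set, in clusters 3 and 4, Grin1 against Grin2b and Gria1 against Grin2a over all cells, and the highest Gria1 cluster with the clustering. No paired analysis was possible because the results come from no test, and the replicate numbers only name cells. Coding length, leaving out cluster 13, leaving out the highest cell of each cluster and dropping 2 cells of cluster 8 were chosen after seeing the data. Depth limits Gria3 and Grin3a most, in the clusters with few UMIs.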

Other observations

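Levels of some partner genes stood far apart between the chemistries, which differ in the part of the transcript they read, in depth and in the sampled cells, so these differences cannot be told apart from each other. Grin2d, a GluN2 subunit at 0.575 CPM (78 UMIs) over all 10X cells, had reads in 64 of 70 sorted cells, with a median of 9.65 CPM. Adar was at 114.4 CPM in 10X cells and had a median of 19.4 CPM in sorted cells. Shank1, a postsynaptic scaffold, was at 38.8 CPM in 10X cells and 119.0 CPM in the median sorted cell. Cacng7 was at 24.4 CPM in 10X cells and had reads in 32 of 70 sorted cells. These genes were chosen after their values were seen.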
